A study of Mus musculus with 4 samples.

Results

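The genes described here are 9 members of the JAK and STAT families: the kinase genes Jak1, Jak2 and Tyk2 and the transcription factor genes Stat2, Stat3, Stat4, Stat5a, Stat5b and Stat6. They were chosen by symbol among the 23284 gene rows of a mouse leukemia RNA-seq series, and all 9 had enough counts to be tested. RNA was sequenced from leukemic cells with high surface c-Kit, the stem cell factor receptor, in mice of the strain C57BL/6. Both groups carried an MLL-driven leukemia, per the title of the series. The compared groups were 2 mice with the Msi2 -/- genotype and 2 Msi2 flox/flox mice, called control here, with 1 library per mouse. The library names open with a number that is shared within each group and differs between the groups; the labels do not say what it marks, and if it is a batch, batch and genotype cannot be told apart. Msi2 encodes Musashi 2, which binds RNA and acts in blood stem cells. The MLL fusion, the Cre that deleted Msi2, and the age of the mice are not stated in the labels.

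Cytokine receptors of the class that uses JAKs have no kinase of their own. Binding of the cytokine brings JAKs on the receptor tails together, the JAKs phosphorylate the receptor and the STATs that dock there, and paired STATs enter the nucleus and bind DNA. In myeloid progenitors Jak2 serves the receptors for IL-3 and GM-CSF and acts largely through the STAT5 proteins, G-CSF and IL-6 signal largely through STAT3, and Tyk2 and Jak1 serve the interferon receptors, where STAT2 joins IRF9 in a complex that binds interferon-stimulated response elements. STAT proteins are switched by phosphorylation, which RNA counts do not measure.

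Promoter windows of Stat2 and of Oas1a and Bst2, the pathway genes whose pattern over the 4 libraries lay nearest to that of Stat2, are shown because all of them held the core letters of an interferon-stimulated response element. They were picked for that: Ptpn1, the gene next in nearness, and Irf9 after it held neither motif searched here. Capitals mark every match of GAAANNGAAA, the core of that element, and of TTCNNNGAA, the site of a STAT dimer known as a GAS element, on either strand; in Bst2 the matches of both overlap. The sequences are RefSeq windows of the build GRCm38.p6, from 250 bases before to 50 bases after the start, on the strand of the gene. The Stat2 window is chr10:128270248-128270547 on the plus strand, that of Oas1a is chr5:120907476-120907775 on the minus strand, and that of Bst2 is chr8:71537423-71537722 on the minus strand.
Stat2: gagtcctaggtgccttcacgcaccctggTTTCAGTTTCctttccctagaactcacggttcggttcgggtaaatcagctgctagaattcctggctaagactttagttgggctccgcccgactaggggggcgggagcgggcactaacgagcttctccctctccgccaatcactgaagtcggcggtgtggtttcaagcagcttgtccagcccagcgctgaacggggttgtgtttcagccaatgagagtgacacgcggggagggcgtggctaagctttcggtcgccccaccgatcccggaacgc
Oas1a: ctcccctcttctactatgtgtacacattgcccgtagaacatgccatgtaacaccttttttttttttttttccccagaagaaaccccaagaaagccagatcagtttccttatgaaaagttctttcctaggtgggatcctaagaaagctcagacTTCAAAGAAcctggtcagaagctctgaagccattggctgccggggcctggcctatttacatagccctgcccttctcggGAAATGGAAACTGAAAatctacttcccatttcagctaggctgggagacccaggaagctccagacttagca
Bst2: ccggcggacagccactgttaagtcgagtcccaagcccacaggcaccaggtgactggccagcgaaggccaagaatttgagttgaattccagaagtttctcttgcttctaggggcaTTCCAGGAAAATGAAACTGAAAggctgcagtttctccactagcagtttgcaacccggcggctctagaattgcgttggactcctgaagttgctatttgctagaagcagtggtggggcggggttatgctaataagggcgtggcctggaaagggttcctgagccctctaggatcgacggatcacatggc

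In Stat2 the match read TTTCAGTTTC, the element on the opposite strand, at bases 29 to 38 of the window. Oas1a and Bst2 each held 2 overlapping matches of GAAANNGAAA. Of 32851 promoter windows of this length, 3.44% held GAAANNGAAA and 8.30% held TTCNNNGAA. The 9 JAK and STAT genes had 12 windows, of which 2 held GAAANNGAAA, the other being the second listed start of Stat4, and 0 held TTCNNNGAA. The window of Cish, a feedback inhibitor gene known for its STAT5 sites, is shown as the contrasting case. It lies at chr9:107296409-107296708 on the plus strand, with 2 matches of TTCNNNGAA in capitals and none of GAAANNGAAA.
Cish: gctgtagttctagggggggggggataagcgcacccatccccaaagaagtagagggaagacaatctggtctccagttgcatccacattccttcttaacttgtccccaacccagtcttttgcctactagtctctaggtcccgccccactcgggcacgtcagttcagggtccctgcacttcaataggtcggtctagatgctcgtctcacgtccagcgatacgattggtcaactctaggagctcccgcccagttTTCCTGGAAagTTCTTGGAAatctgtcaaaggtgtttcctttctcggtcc

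Gene counts totalled between 72273679 and 87564774 per library, and 3 counts corresponded to between 0.0343 and 0.0415 CPM, counts scaled by library size. Msi2 had 2804 and 3562 counts in control 1 and control 2 and 8 and 17 counts in Msi2 -/- replicates 1 and 2 (log2 difference -8.07, SE 0.485, adjusted p = 0.122 by edgeR and 6.35e-80 by DESeq2). The sorted cells carried transcripts of the c-Kit high myeloid type, with Kit between 50.4 and 68.1 CPM and Hoxa9 between 127 and 162 CPM. Some markers of that type differed between the groups. Mpo, the granule enzyme myeloperoxidase, measured 4001 and 4953 CPM in the control libraries against 2117 and 2159 CPM in the Msi2 -/- pair (log2 difference -1.07, adjusted p = 0.265 by edgeR and 8.4e-12 by DESeq2). DESeq2 also called Myb lower (adjusted p = 0.0417) and Itgam higher (adjusted p = 0.0319), and Cd34 stood at 79.8 CPM in Msi2 -/- replicate 1 and 7.02 CPM in replicate 2. The T and B cell genes Cd3e, Cd3g, Ms4a1 and Pax5 and the red cell gene Hba-a1 were at 0 counts in all libraries, whereas the B cell gene Cd79b stood between 18.5 and 26.3 CPM (called lower by DESeq2, adjusted p = 0.0389) and the red cell factor gene Klf1 between 0.676 and 0.938 CPM. These marker genes were singled out after their values were seen. The groups were also separated by Xist, the transcript of the inactive X chromosome in female cells, which had 1455 and 654 CPM in the control libraries against 0.469 and 0.624 CPM in the Msi2 -/- pair. Xist was singled out after its values were seen. If it marks the sex of the mice, sex and genotype cannot be told apart. None of the 9 members lies on X or Y, and a part of sex in their levels was not tested. Their chromosomes are 1, 4, 9, 10, 11 and 19. Stat5b, Stat5a and Stat3 follow each other on chromosome 11, which also carries Msi2, with 0 tested genes between neighbours of the trio and 128 tested genes between Msi2 and Stat5b.

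Per kilobase of transcript, Jak1 and Stat6 were the most abundant members in the controls and Stat4 the least. These levels are CPM divided by the longest GENCODE M21 transcript with a RefSeq match. Jak1 stood at 40.1 ± 10.04 CPM per kilobase (SD, n = 2) and Stat6 at 38.0 ± 1.24, and their controls overlapped. Stat3 followed at 26.4 ± 1.70 and Tyk2 at 21.7 ± 0.0212. With the shortest matched transcript, of 2927 bases against 6042, Stat3 would stand first at 54.6 CPM per kilobase, so its place depends on the transcript assumed. Stat5b (15.7 ± 1.78) and Stat5a (15.4 ± 0.578) could not be ordered beyond their spread. Stat2 (11.5 ± 0.334), Jak2 (9.76 ± 0.416) and Stat4 (7.001 ± 0.577) completed the order without overlap of the controls. The order of the means by the longest transcript was the same in the Msi2 -/- mice.

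Of the 9 members, 8 stood higher in the Msi2 -/- mice by small amounts and 0 passed edgeR's quasi-likelihood test. That test called 1 of 13215 genes (0.00757%). The log2 fold changes, Msi2 -/- minus control, ran from -0.08 to 0.42 with a median of 0.17, against a median of -0.0020 over all tested genes, of which 49.7% lay above 0. The members' median was 0.095 without Msi2 -/- replicate 2 and 0.25 without replicate 1, and 7 to 9 members lay above 0 with a library left out. In 6 of the 9 members both Msi2 -/- libraries lay above both controls, as in 23.7% of all tested genes. Non-overlap in either direction was found in 48.3% of tested genes. Without adjustment 2 members had p under 0.05, Stat2 and Tyk2, against 12.9% of all tested genes. Both were higher, as were 6.69% of tested genes at that p. DESeq2 called 1 member, Stat2, at an adjusted p under 0.05, where it called 5.81% of 13350 genes (3.1% higher and 2.71% lower). The smallest edgeR adjusted p among the members was 0.289. Markers of mature neutrophils differed between the same groups: the 11 with a row totalled 1126 and 745 CPM in control 1 and control 2 but 1463 and 2494 CPM in Msi2 -/- replicates 1 and 2. Of the 10 tested, 7 lay above 0, with a median log2 fold change of 0.83, and DESeq2 called 4 higher (S100a8, S100a9, Ltf, Lcn2) and 1 lower (Cxcr2) while edgeR called 0 (4 higher and 1 lower before adjustment). These 5 genes were singled out after their values were seen, none of the 11 was at 0 in all libraries, and their part in the levels of the JAK and STAT genes was not tested.

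**Figure D1:**
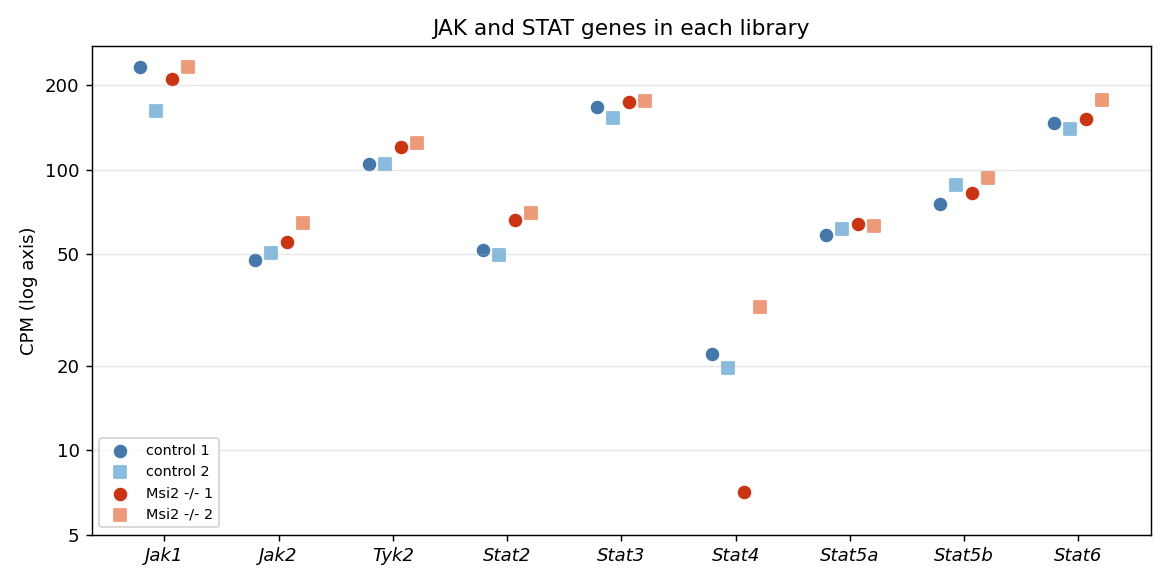
CPM of the 9 JAK and STAT genes in each of the 4 libraries, on a log axis; blue symbols are controls, red symbols are Msi2 -/- mice, circles are replicate 1 and squares replicate 2. Msi2 -/- libraries sit above both controls for Jak2, Tyk2, Stat2, Stat3, Stat5a and Stat6, and Stat4 spreads from 7.09 to 32.5 CPM within the Msi2 -/- group.

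Stat2, the STAT of the interferon response, had the largest log2 fold change and the smallest p of the family. Control 1 and control 2 held 51.8 and 49.7 CPM of it, and Msi2 -/- replicates 1 and 2 held 66.2 and 70.1 CPM. Both Msi2 -/- libraries were above both controls, and the libraries within a group were close to each other. The log2 fold change was 0.42 (SE 0.0759, 95% interval 0.22 to 0.63), or 1.34-fold, with an edgeR adjusted p of 0.289 and a DESeq2 adjusted p of 0.00115. The DESeq2 call was lost whichever library was left out, at adjusted p-values between 0.0916 and 0.546 and log2 fold changes between 0.39 and 0.47. The window of Stat2 shown above holds the core letters of the element that STAT2 and IRF9 are known to bind, as do 3.44% of all windows. A part of this match in the level of Stat2 was not tested.

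Tyk2, the kinase that sits on the interferon receptor subunit IFNAR1, showed the least spread. It measured 104.9 and 104.8 CPM in the control libraries against 121 and 124 CPM in the Msi2 -/- pair. The groups were apart by several times the spread within them, at a size of 1.17-fold (log2 difference 0.22, SE 0.0621, unadjusted p = 0.0201, adjusted p = 0.335 by edgeR and 0.0594 by DESeq2). Jak2, the kinase of the IL-3, GM-CSF, erythropoietin and thrombopoietin receptors, measured 47.6 and 50.6 CPM in the control libraries against 55.2 and 64.8 CPM in the Msi2 -/- pair. Its groups did not overlap, and Msi2 -/- replicate 2 was the highest. The log2 fold change was 0.29 (SE 0.109, edgeR adjusted p = 0.395), and 0.17 without Msi2 -/- replicate 2. Jak1, which serves interferon, IL-6 and common gamma chain receptors, measured 232 and 162 CPM in the control libraries against 210 and 232 CPM in the Msi2 -/- pair. Control 1 equalled the highest Msi2 -/- library within 1 CPM and control 2 was low, so the groups overlapped (log2 difference 0.17, SE 0.192, edgeR adjusted p = 0.740). Without control 1 the log2 fold change of Jak1 was 0.45, without control 2 it was -0.068 and without Msi2 -/- replicate 2 it was 0.092.

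Stat6, the STAT of IL-4 and IL-13, measured 147 and 140.1 CPM in the control libraries against 152 and 177 CPM in the Msi2 -/- pair. The groups did not overlap, but Msi2 -/- replicate 1 lay close to control 1 (log2 difference 0.20, SE 0.0979, edgeR adjusted p = 0.464). The difference was 0.085 without Msi2 -/- replicate 2 and 0.31 without replicate 1. Stat3, which transmits IL-6 and G-CSF signals, measured 167 and 152 CPM in the control libraries against 175 and 176 CPM in the Msi2 -/- pair. The difference of 0.13 on the log2 scale (SE 0.0750, 95% interval -0.069 to 0.34, edgeR adjusted p = 0.504) was of the size of the gap between the controls, and became 0.20 without control 1 and 0.071 without control 2.

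Stat5a and Stat5b encode the paired STAT5 proteins that act downstream of Jak2. Stat5a measured 58.2 and 61.4 CPM in the control libraries against 63.9 and 62.9 CPM in the Msi2 -/- pair. All libraries were within a narrow range and the groups did not overlap (log2 difference 0.08, SE 0.0718, 95% interval -0.11 to 0.28, edgeR adjusted p = 0.658), and without control 1 the difference was 0.047. Stat5b measured 75.2 and 88.3 CPM in the control libraries against 82.5 and 93.2 CPM in the Msi2 -/- pair. The groups overlapped, replicate 2 being the higher library in each (log2 difference 0.10, SE 0.116, 95% interval -0.21 to 0.42, edgeR adjusted p = 0.730). Without control 1 the log2 fold change of Stat5b was -0.0051, without control 2 it was 0.23, and without Msi2 -/- replicates 1 and 2 in turn it was 0.20 and 0.014. The longest reading frames of Stat5a and Stat5b, of 2394 and 2361 bases, were 84.6% identical and shared a run of 324 bases letter for letter. Of the 100-base stretches of the Stat5a frame, 11.5% occur unchanged in Stat5b, so the split of reads between this pair is uncertain.

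**Figure D2:**
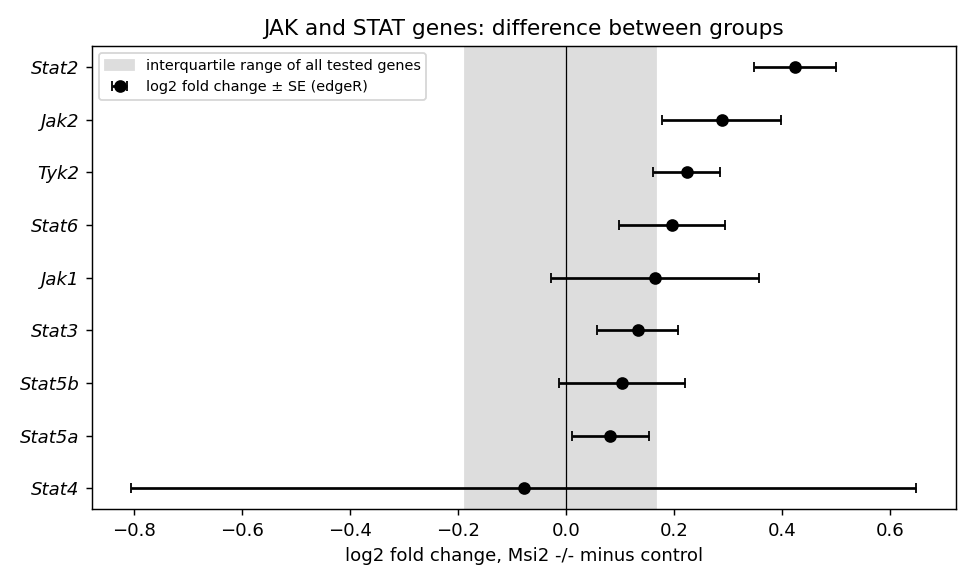
Log2 fold change of each member, Msi2 -/- minus control, with its standard error from edgeR; the grey band is the interquartile range of all 13215 tested genes. Stat2 lies farthest to the right at 0.42, 8 members lie above 0, and the error of Stat4 spans the band on both sides.

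Stat4, which carries IL-12 and interferon signals and is best known from T and NK cells, was the member that differed most between the mice of a group. It stood at 22.1 and 19.7 CPM in the controls, 7.09 CPM in Msi2 -/- replicate 1 and 32.5 CPM in Msi2 -/- replicate 2. The Msi2 -/- mice thus lay on opposite sides of both controls, 4.58-fold apart, where the other 8 members had ratios of Msi2 -/- replicate 2 to replicate 1 between 0.984 and 1.17. Among the controls Jak1 was the most unequal member, with a ratio of control 2 to control 1 of 0.699. The group difference was -0.08 on the log2 scale with an SE of 0.727 (edgeR adjusted p = 0.974), and its 95% interval ran from -2.04 to 1.89. With Msi2 -/- replicate 1 left out the difference became 0.65, and with replicate 2 left out it became -1.56 (edgeR adjusted p = 0.218 and 0.0663). DESeq2 called Stat4 lower without replicate 2, with an adjusted p of 1.01e-07, which is then a comparison of 1 mouse with 2 controls.

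Genes used as markers of other blood cells were unequal between the same mice. Which cells carried these transcripts was not tested. The list of monocyte and dendritic cell markers summed to 254 and 356 CPM in the controls, 136 CPM in Msi2 -/- replicate 1 and 492 CPM in replicate 2. Within it Ccr2, a chemokine receptor of inflammatory monocytes, measured 130 and 199 CPM in the control libraries against 19.98 and 312 CPM in the Msi2 -/- pair. F13a1, a clotting factor subunit made by monocytes, measured 35.3 and 26.6 CPM in the control libraries against 6.18 and 44.7 CPM in the Msi2 -/- pair. Both had their lowest value in Msi2 -/- replicate 1 and their highest in replicate 2, as Stat4 did and as 4 of the 9 tested markers of this list did. The list did not move as a unit. Cd14, an endotoxin coreceptor gene, ran the other way between the Msi2 -/- mice, with 70.1 CPM in replicate 1 and 43.6 CPM in replicate 2. Both values lay above those of control 1 and control 2, at 33.5 and 33.1 CPM. Csf1r, the receptor gene of the macrophage growth factor, also lay above both controls in both Msi2 -/- mice. Irf8 and Flt3, genes of dendritic and monocyte progenitors, and the marker Ly86 lay below both controls in both. Groups that did not overlap were found in 48.3% of all tested genes. DESeq2 called Csf1r higher (adjusted p = 0.00933) and Irf8 lower (adjusted p = 5.76e-05), beside 3.1% and 2.71% of all genes. EdgeR called 0 of the list, with 2 higher and 2 lower before adjustment, beside 6.69% and 6.17% of all tested genes. Of the 12 markers with a row, Siglech was at 0 in all libraries.

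The 19 T and NK cell markers summed to 132 and 189 CPM in the control libraries against 31.6 and 158 CPM in the Msi2 -/- pair, and 5 of them were at 0 in all libraries (Cd3e, Cd3g, Cd2, Cd8a and Ncr1). Most of the sum was Nkg7, a granule membrane protein gene of cytotoxic cells, with 121 and 177 CPM in the control libraries against 22.8 and 147 CPM in the Msi2 -/- pair. Klrb1c, for an NK cell receptor, measured 1.25 and 1.37 CPM in the control libraries against 0.126 and 0.975 CPM in the Msi2 -/- pair. Of the 5 tested T and NK cell markers 3 were lowest in Msi2 -/- replicate 1. Prf1, the perforin gene and the marker of smallest p in the list, was highest there, at 1.69 CPM against 0.151 to 0.370 CPM in the other libraries, and Cd3d also had its most counts there (16, against 2 to 4). Tbx21 and Gzma did not exceed 0.037 CPM in any library. The monocyte and lymphoid markers named here were singled out after their values were seen, and the part of other cells in the level of Stat4 was not tested. Fewer cells of a type and less RNA per cell cannot be told apart in bulk RNA.

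**Figure D3:**
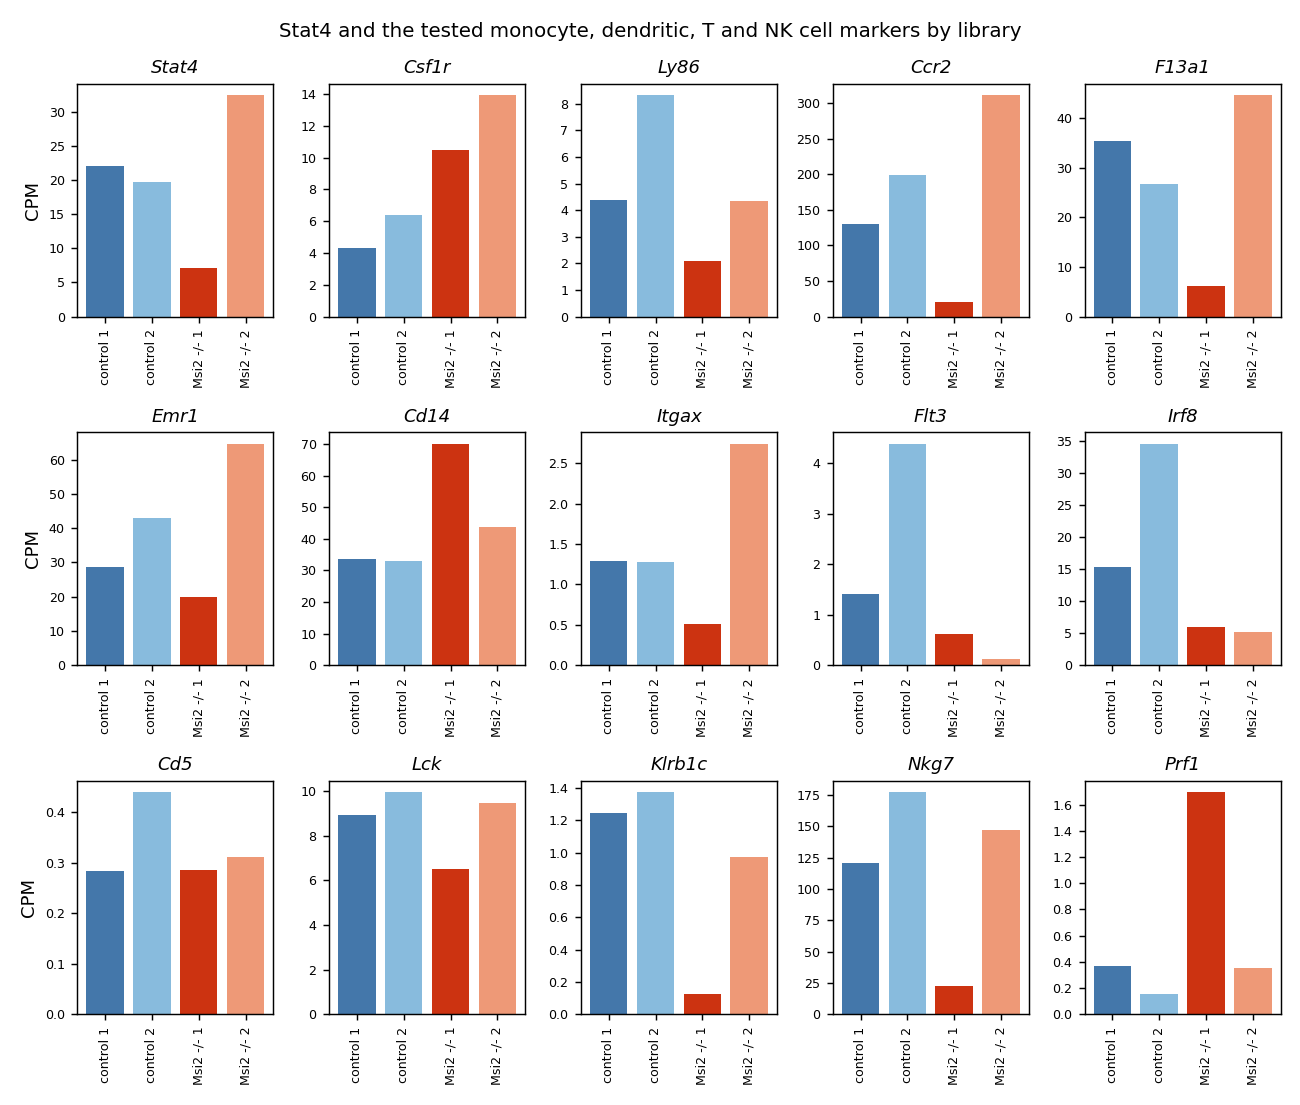
CPM of Stat4, of the 9 tested monocyte and dendritic cell markers and of the 5 tested T and NK cell markers, 1 bar per library and an axis from 0 in each panel. Msi2 -/- replicate 1 has the lowest bar for Stat4 (7.09 CPM), for 5 of the 9 and for 3 of the 5, and the highest bar for Cd14 (70.1 CPM) and Prf1 (1.69 CPM).

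Receptors that signal through JAKs did not move as a group. Of 34 receptor genes 26 were tested, 13 above 0 and 13 below, with a median log2 fold change of 0.03; edgeR called 0 and DESeq2 called 1 higher and 1 lower, and before adjustment 5 passed 0.05 higher and 1 lower. Among all genes DESeq2 called 3.1% higher and 2.71% lower, and 6.69% were higher and 6.17% lower before adjustment. Il15ra, which presents IL-15, measured 25.0 and 24.1 CPM in the control libraries against 14.9 and 16.8 CPM in the Msi2 -/- pair (log2 difference -0.63, SE 0.128, adjusted p = 0.293 by edgeR and 0.00154 by DESeq2). Csf2rb2, the beta subunit of the mouse IL-3 receptor, measured 49.4 and 55.8 CPM in the control libraries against 78.5 and 69.1 CPM in the Msi2 -/- pair (log2 difference 0.49, SE 0.109, DESeq2 adjusted p = 0.0117). Csf2rb2 is a close copy of Csf2rb, so reads of the pair may be split wrongly. Csf2rb, named here only as that copy, measured 291 and 338 CPM in the control libraries against 392 and 376 CPM in the Msi2 -/- pair. Its log2 difference was 0.29 (SE 0.0989, adjusted p = 0.373 by edgeR and 0.137 by DESeq2). The DESeq2 calls of Il15ra and Csf2rb2 were lost when control 1, control 2 or Msi2 -/- replicate 1 was left out.

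Il2rg, the common gamma chain gene on the X chromosome, measured 71.9 and 82.7 CPM in the control libraries against 94.9 and 96.7 CPM in the Msi2 -/- pair (log2 difference 0.31, SE 0.0917, edgeR adjusted p = 0.346). Beside it stands the difference in Xist given above, whose part was not tested. The interferon receptor genes that pair with Tyk2 and Jak1 had small group differences of opposite sign. Ifnar1 stood between 82.2 and 82.5 CPM in the control libraries and between 74.2 and 79.0 CPM in the Msi2 -/- pair (log2 difference -0.10, SE 0.0670). Its groups did not overlap, as in 48.3% of all tested genes. Ifnar2 measured 80.1 and 82.8 CPM in the control libraries against 78.5 and 96.7 CPM in the Msi2 -/- pair. The groups of Ifnar2 overlapped (log2 difference 0.10, SE 0.120). Both interferon receptor genes were singled out after their values were seen.

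Of 28 cytokine ligand genes, 14 had no more than 3 counts in any library and 10 were tested, 7 above 0 and 3 below, with a median log2 fold change of 0.22. EdgeR and DESeq2 called 0. Before adjustment edgeR had 2 higher and 2 lower, beside 6.69% and 6.17% of all tested genes. The highest CPM, not corrected for transcript length, were those of Ebi3 and Il12a. Ebi3, for a subunit of IL-27 and IL-35, stood between 52.7 and 63.8 CPM. Il12a, for a subunit of IL-12, stood between 13.7 and 48.6 CPM with its highest value in Msi2 -/- replicate 2. Both were singled out after their values were seen. The ligands of smallest p were Ctf1, for cardiotrophin 1 (1.12 and 0.947 CPM in the control libraries, then 0.389 and 0.286 CPM in the Msi2 -/- pair, log2 difference -1.61), Tslp, for an epithelial cytokine (2.59 and 3.07 CPM, then 1.02 and 1.55 CPM, log2 fold change -1.14), and Il27, for a subunit of IL-27 (0.358 and 0.233 CPM, then 0.687 and 0.819 CPM, log2 fold change 1.34). Their edgeR adjusted p-values were 0.320, 0.352 and 0.362. Ifnb1 and Ifng were at 0 counts in every library, at a floor of 3 counts or at most 0.0415 CPM.

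Inhibitors of the pathway lay slightly above 0 on balance. All 20 were tested, with 14 above 0 and 6 below and a median log2 fold change of 0.09. EdgeR called 0, with 4 higher and 0 lower before adjustment, beside 6.69% and 6.17% of all tested genes. DESeq2 called 2 of the 20 higher, beside 3.1% of all genes. Ptpn1, a phosphatase that acts on Jak2 and Tyk2, measured 153 and 146 CPM in the control libraries against 212 and 203 CPM in the Msi2 -/- pair. The groups were well apart (log2 difference 0.48, SE 0.0677, adjusted p = 0.271 by edgeR and 1.14e-06 by DESeq2). Cbl, a ubiquitin ligase of activated kinase receptors, measured 49.7 and 58.2 CPM in the control libraries against 97.7 and 82.3 CPM in the Msi2 -/- pair (log2 difference 0.74, SE 0.131, DESeq2 adjusted p = 0.00026). Ptpn6, the SHP-1 phosphatase gene, differed by 0.29 on the log2 scale (SE 0.0921, adjusted p = 0.362 by edgeR and 0.113 by DESeq2). With a library left out, DESeq2 lost Ptpn1 without control 2 (adjusted p = 0.0593) and Cbl without control 1 (adjusted p = 0.0700). The direct feedback inhibitors differed among themselves. Socs1 measured 13.8 and 13.7 CPM in the control libraries against 17.2 and 21.3 CPM in the Msi2 -/- pair, with the groups apart (log2 difference 0.49, SE 0.162, edgeR adjusted p = 0.362). Socs2 measured 15.5 and 41.3 CPM in the control libraries against 10.02 and 17.6 CPM in the Msi2 -/- pair, and Cish measured 57.3 and 59.7 CPM and then 65.0 and 108 CPM. Socs1, Socs2 and Cish were singled out after their values were seen.

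Partners and adaptors of the STATs showed 0 calls by edgeR or DESeq2 and 0 at an unadjusted p under 0.05. By edgeR 12.9% of all tested genes were under that p. Of 11 tested, 6 lay above 0 and 5 below, with a median log2 fold change of 0.05. The genes of smallest p were the coactivator gene Crebbp at 0.29 (SE 0.113), Nmi, for a protein that binds STATs and MYC, at -0.66 (SE 0.268), and Stam, an adaptor of cytokine receptor sorting, at -0.23 (SE 0.0924). Irf9, the DNA-binding partner of STAT2, measured 23.1 and 20.9 CPM in the control libraries against 25.5 and 29.5 CPM in the Msi2 -/- pair (log2 difference 0.32, SE 0.134, edgeR adjusted p = 0.414). It was singled out from this list as the partner of Stat2.

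Genes known to respond to the complex of STAT2 and IRF9 had the highest median of the pathway lists. Of 25 in the list 23 were tested, 19 above 0 and 4 below, with a median log2 fold change of 0.44 beside -0.0020 for all tested genes. In 10 of the 23 both Msi2 -/- libraries lay above both controls, against 23.7% of all tested genes, and in 2 both lay below. EdgeR called 0 (3 higher and 0 lower before adjustment, beside 6.69% higher among all genes), and DESeq2 called 3 of the 23 higher, beside 3.1% of all genes. Against the control mean the list's median was 0.45 in Msi2 -/- replicate 1 and 0.42 in replicate 2. Higher interferon genes were already known from these data when the list was written, so the list is no independent evidence. Of 21 promoter windows of the list, 11 held GAAANNGAAA.

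Bst2, the gene of the virus-tethering protein tetherin, measured 54.2 and 55.7 CPM in the control libraries against 75.3 and 74.0 CPM in the Msi2 -/- pair (log2 difference 0.44, SE 0.0671, DESeq2 adjusted p = 4.42e-05). Ddx58, for the RNA sensor RIG-I, measured 27.3 and 24.7 CPM in the control libraries against 37.6 and 43.0 CPM in the Msi2 -/- pair (log2 difference 0.63, SE 0.124, DESeq2 adjusted p = 0.00131). Oas1a, an oligoadenylate synthetase gene with near copies in the genome, measured 34.8 and 31.2 CPM in the control libraries against 44.9 and 48.2 CPM in the Msi2 -/- pair (log2 difference 0.50, SE 0.106, DESeq2 adjusted p = 0.00486). All 3 showed groups apart. Their edgeR adjusted p-values were 0.271, 0.293 and 0.303, and with a library left out DESeq2 kept 0 or 1 of the 3 calls, the 1 being Ddx58 without Msi2 -/- replicate 1 (adjusted p = 0.0115). Classical interferon genes such as Mx1 and Ifit1 stayed under 1 CPM in all libraries, and Ifit2 lay below 0 at -0.29 (SE 0.229). Also below 0 were Ifit3 at -1.06 (SE 0.681), Mx2 at -0.67 (SE 0.908) and Oasl2 at -0.25 (SE 0.468), all under 1 CPM. Mx1, Mx2, Oasl2 and the Ifit genes were singled out after their values were seen.

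**Figure D4:**
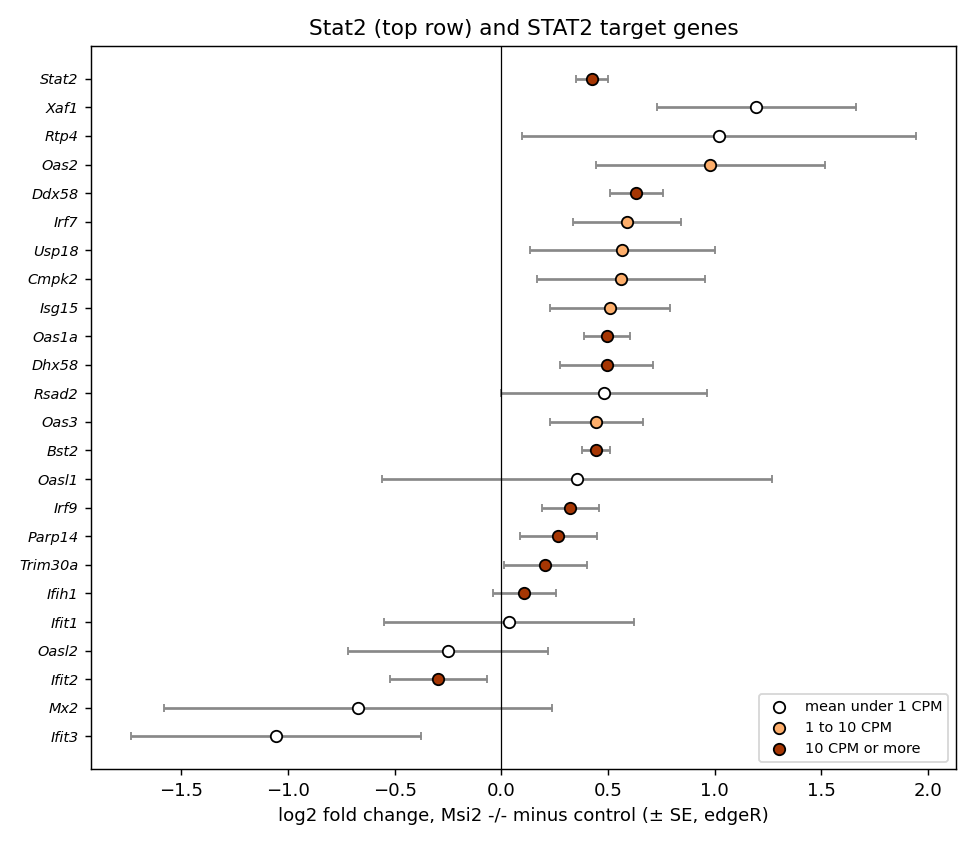
Log2 fold change with standard error for Stat2 in the top row and the 23 tested STAT2 target genes below it, filled by mean CPM. In all, 19 of the 23 targets lie above 0, and the genes under 1 CPM have the widest errors.

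The pathway genes whose profile lay nearest to that of Stat2 were Oas1a, Bst2 and Ptpn1. Likeness was the root mean square distance between log2 CPM values centred on each gene's mean over the 4 libraries, among 103 tested pathway genes. The distance was 0.0506 for Oas1a, 0.0525 for Bst2 and 0.0577 for Ptpn1. By this measure genes with a like group difference and a small spread lie near. The log2 fold changes of these genes were 0.50, 0.44 and 0.48, beside 0.42 for Stat2. The lists were written with results of these data known, so this nearness is no independent evidence. The promoter windows of Oas1a and Bst2 held both motifs, that of Stat2 held GAAANNGAAA alone, and that of Ptpn1 held 0 matches of either.

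Known targets of STAT3 and STAT5 were spread around 0. Of 24 in the list 22 were tested, with 13 above 0 and 9 below and a median log2 fold change of 0.04. EdgeR called 0, with 3 higher and 0 lower before adjustment, beside 6.69% and 6.17% of all tested genes. DESeq2 called 1 of the 22 higher, beside 3.1% of all genes. That gene was Ccnd3, for cyclin D3, at 350.1 and 330.5 CPM in the control libraries against 550.5 and 486 CPM in the Msi2 -/- pair. Both Msi2 -/- libraries were far above the controls (log2 difference 0.61, SE 0.0913, adjusted p = 0.271 by edgeR and 2.03e-06 by DESeq2). DESeq2 kept the call of Ccnd3 whichever library was left out, with adjusted p-values of at most 0.0162. Osm, the oncostatin M gene, differed by 0.57 on the log2 scale (SE 0.198) and Il4ra, the IL-4 receptor gene, by 0.25 (SE 0.0757), with edgeR adjusted p-values of 0.375 and 0.352. Pim1, a kinase gene downstream of STAT5, overlapped between groups, with 411 and 482 CPM in the control libraries against 453 and 459 CPM in the Msi2 -/- pair. Ccnd2, for cyclin D2, is 1 of the 9 genes below 0. It measured 133 and 168 CPM in the control libraries against 86.7 and 123 CPM in the Msi2 -/- pair. Its log2 difference was -0.52 (SE 0.216, adjusted p = 0.414 by edgeR and 0.194 by DESeq2). Pim1 and Ccnd2 were singled out after their values were seen.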

How the data were processed

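TruSeq RNA libraries from Trizol and RNeasy extracts were read from both ends on an Illumina HiSeq, per the labels' protocols. The submitters' processing notes name Trimmomatic, STAR, HTSeq, DESeq and the build mm9; no source used here gives the annotation or strand setting, so reads of overlapping or antisense genes may be mixed. The authors deposited raw read counts per gene symbol. Rows that name no gene held 19.1% to 20.1% of the counts and were left out. The count of alignments that were not unique is listed as 0.

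In R 4.3.3, edgeR 4.0.16 tested all genes passing filterByExpr (minimum count 10, minimum total count 15) with TMM scaling and group as the only term, two-sided, with Benjamini-Hochberg adjustment over 13215 genes and a threshold of 0.05. Intervals and standard errors come from its quasi-likelihood statistic. CPM use TMM-scaled library sizes. DESeq2 1.42.0 and limma 3.58.1 were alternatives, beside other scalings, filters, a likelihood ratio test, a replicate block and leaving out each library. The code was tested on simulated data. Each library is a separate mouse, per the design text. The members and lists were chosen with earlier results of these data known. The named genes were all members, Msi2, the 3 genes of smallest p in each pathway list and the 3 nearest to the leading member; others are said to be singled out. Not all genes of the 2 families are reported here. Promoter windows matched all 9 members by symbol.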

Additional observations from a re-analysis of the deposited data

How the results depend on the processing

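Of 108 alternative fits of single members, 103 kept their direction and side of the threshold, 4 reversed and 1 newly passed, which was Stat2 by DESeq2 at a log2 fold change of 0.43. All reversals came from leaving out 1 library: Stat4 ran from -1.56 to 0.65, with 0.013 without control 1 and 0.65 without Msi2 -/- replicate 1, Stat5b from -0.0051 to 0.23 and Jak1 from -0.068 to 0.45. The cause was not tested. Members called were 1 by DESeq2 and 0 under the other scalings, filters, tests and left-out libraries. Among all tested genes DESeq2 called 776, and the calls were 312 by edgeR's likelihood ratio test, 6 with no filter, 0 by limma-voom, 0 with the replicate block, and 0 to 106 with a library left out, against 1. In the lists DESeq2 called 1 receptor higher and 1 lower, 2 inhibitors, 3 STAT2 targets and 1 target of STAT3 and STAT5 higher, and the likelihood ratio test called 2 inhibitors and 1 target of STAT3 and STAT5 higher, where edgeR's quasi-likelihood test called 0. DESeq2 with a library left out, chosen after seeing the data, called 0 to 1 members, the 1 being Stat4, and 0 to 2 STAT2 targets. Same-numbered mice share only a number: their deviations from the group means had a correlation of 0.039 over 13215 genes. Each member had at least 620 counts in every library, and with 2 mice per group the SE of the log2 fold change ran from 0.0621 for Tyk2 to 0.727 for Stat4.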
